A study of Mus musculus with 8 samples.

Results

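The data described here are those of 10 genes of iron handling and metal binding in mouse liver: the hepcidin genes Hamp and Hamp2, the upstream regulators Hfe and Tfr2, the transferrin receptor Tfrc, the ferritin subunits Fth1 and Ftl1, the iron exporter ferroportin (Slc40a1), and the metallothioneins Mt1 and Mt2. They were chosen by symbol for their function, with no threshold on their values, but with earlier results of these data known. All 10 were listed in both assays, among 24079 symbols that the assays share, and all 10 passed the filter on low values in both. Male C57BL/6 mice were fed a high-fat diet in which fat supplied 45% of the energy. The HF group received this diet alone, and the HB group received the same diet together with betaine at 2% (w/v) in the drinking water, so that every mouse analysed here was on the high-fat diet. The diet began at an age of 8 weeks. The labels give week 25 both for the age at liver collection and for the length of the diet, which cannot both hold for a diet begun at that age, and the methods give a shorter diet. Each group held 6 mice. The methods name 2 mice per group, chosen by body weight, for sequencing and call the libraries biological repeats, whereas the labels describe RNA preparations that were pooled before library construction. Each group had 2 RNA-seq libraries of polyadenylated mRNA and 2 Ribo-seq libraries of ribosome-protected fragments (RPFs), which are short pieces of mRNA kept from RNase by the ribosome on them. Since these sources differ on whether a library is 1 animal, the p-values given here are taken as measuring the spread between libraries, part of which may be technical.

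Hepatocytes release hepcidin, a peptide hormone that binds ferroportin on iron-exporting cells and causes its degradation, so that less iron enters the blood. Transcription of hepcidin is driven by bone morphogenetic proteins (BMPs) acting through SMAD proteins, with HFE, transferrin receptor 2 and hemojuvelin as modifiers, and by interleukin 6 acting through STAT3. Ferritin, a shell of heavy and light chains, stores iron inside the cell. When iron is scarce, the iron regulatory proteins bind a short RNA hairpin, the iron-responsive element: in the 5′ untranslated region (UTR) of ferritin and ferroportin mRNAs it then blocks translation, and in the 3′ UTR of Tfrc mRNA it protects the transcript from decay. Metallothioneins are small cysteine-rich proteins that bind zinc and copper, and their transcription follows metals through MTF1 and also responds to glucocorticoids.

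The hairpins that connect this control to RPF counts were located in the GENCODE M21 transcripts (GRCm38). The search was for an unpaired C, 5 bases, the loop CAGTGN and 5 bases able to pair with the first 5, G-U pairs allowed. Such a hairpin was found once in the 5′ UTR of Fth1, Ftl1 and Slc40a1 and 4 times in the 3′ UTR of Tfrc. Of 19150 genes with a 5′ UTR, 19 (0.0992%) held one, and Tfrc was the only one of 20353 genes with at least 3 in its 3′ UTR. The 29 bases around each are shown because the position of the element separates the transcripts whose translation it is known to control from the one whose stability it is known to control. Capitals mark the unpaired C and the loop. The first lies at chr19:9982732-9982760 on the plus strand, the Ftl1 element at chr7:45459779-45459807 and the Slc40a1 element at chr1:45925465-45925493, both on the minus strand. The first and last of the Tfrc hairpins lie at chr16:32631219-32631247 and chr16:32631710-32631738 on the plus strand.

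Fth1 5′ UTR: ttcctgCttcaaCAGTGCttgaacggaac

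Ftl1 5′ UTR: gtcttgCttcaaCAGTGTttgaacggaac

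Slc40a1 5′ UTR: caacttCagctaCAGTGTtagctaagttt

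Tfrc 3′ UTR, first: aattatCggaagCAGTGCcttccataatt

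Tfrc 3′ UTR, last: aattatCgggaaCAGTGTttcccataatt

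The values are RPKM, read counts scaled to transcript length and to the mapped reads of the library, as the authors deposited them, and translation efficiency (TE) is the RPKM of RPFs divided by that of mRNA. Since RPKM is scaled to length, mRNA levels can be compared between genes. The lengths behind the RPKM of the 10 genes are near those of whole annotated transcripts and not of coding parts, and are furthest off for Tfr2 (3578 bases in RNA-seq and 3408 in Ribo-seq against 3072) and Mt2 (556 against 511). The coding part takes 30.2% (Hfe) to 78.0% (Tfr2) of the annotated transcripts, so RPF levels and TE between genes also move with that share. Genes were tested with limma on log2(RPKM + 1). Calls followed the thresholds of the study, with p-values not adjusted: for mRNA the log2 fold change had to exceed 1 in size at p under 0.001, for RPFs 1 at p under 0.05, and for TE 2 at p under 0.05. For mRNA, genes with a change of this size and a Benjamini-Hochberg adjusted p under 0.05 are given as well, and "fell" or "rose" is used below for genes past that rule in mRNA, or past the unadjusted rule of the study in RPFs and TE.

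The RNA-seq libraries held 11661207 to 22543471 mapped reads and the Ribo-seq libraries 141890 to 1056546, as recovered from the steps between low RPKM values. The HB Ribo-seq libraries were the shallowest, with 257086 and 141890 reads, and 3 reads on a transcript of 1 kb corresponded to 11.7 and 21.1 RPKM there. All 8 hepatocyte markers were detected, and their summed mRNA was 47951 and 50162 RPKM in HF and 56340 and 55545 RPKM in HB. The 11 macrophage and Kupffer cell markers summed to 187 and 230 RPKM of mRNA in HF and to 287 and 282 in HB, 4 of them higher at an adjusted p under 0.05 and 0 lower, where 7.92% of all genes were higher and 19.1% lower by that rule at any fold. Of 9 listed markers of blood cells, 5 were tested and 1 was at 0 throughout, and their sum was 675 and 524 RPKM in HF and 738 and 2249 in HB, 3 of the 5 higher by the same rule and 0 lower. In RPFs the blood markers summed to 1109 and 617 RPKM in HF and to 2559 and 381 in HB, with 0 called. The highest library was thus HB library 2 in mRNA and HB library 1 in RPFs. Hbb-bs, a beta globin, was called higher in HB (log2 fold change of mRNA 2.51 ± 0.39, SE). The 7 endothelial markers summed to 90.7 and 91.7 RPKM in HF and to 62.4 and 77.1 in HB, with Stab1 called lower (log2 fold change of mRNA -1.52 ± 0.32, SE) and 2 lower and 0 higher by the adjusted p. In such bulk samples, fewer cells of a type and less RNA per cell cannot be told apart, and the part of these cell types in the results below was not tested.

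The mRNA of both hepcidin genes and of both metallothioneins fell in HB, that of Tfrc was lower without passing the test, and that of Fth1 was higher without passing it. None of the 10 passed the unadjusted p of 0.001 in limma, a rule that 8.86% of all 10687 tested genes met (2.30% higher and 6.56% lower in HB). Among 13 alternative settings that keep this rule, it was met by Hamp under 7, by Mt1 and Mt2 under 5 each, by Hamp2 under 4 and by Tfrc under 1, each time lower in HB. With the adjusted p, 4 of the 10 fell and 0 rose, against 12.7% and 5.01% of all genes, and 6 had an unadjusted p under 0.05, as did 40.5% of all genes. In 7 of the 10 the libraries of the groups did not overlap, which was also the case for 68.1% of all genes, so this count is near the background. HB lay below HF for 5 of them (43.3% of all genes) and above it for 2 (24.8% of all genes). The median log2 fold change of mRNA was -0.60 over the 10 genes and -0.19 over all tested genes. With the libraries set to a common median, the calls of the study's rule were 540 higher and 291 lower, against 246 and 701 here, and Hamp, Hamp2, Mt1 and Mt2 remained lower with adjusted p-values of 0.0356, 0.0492, 0.0384 and 0.0279. Without the filter on low values, these 4 had adjusted p-values of 0.102 to 0.145 and did not pass.

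**Figure D1:**
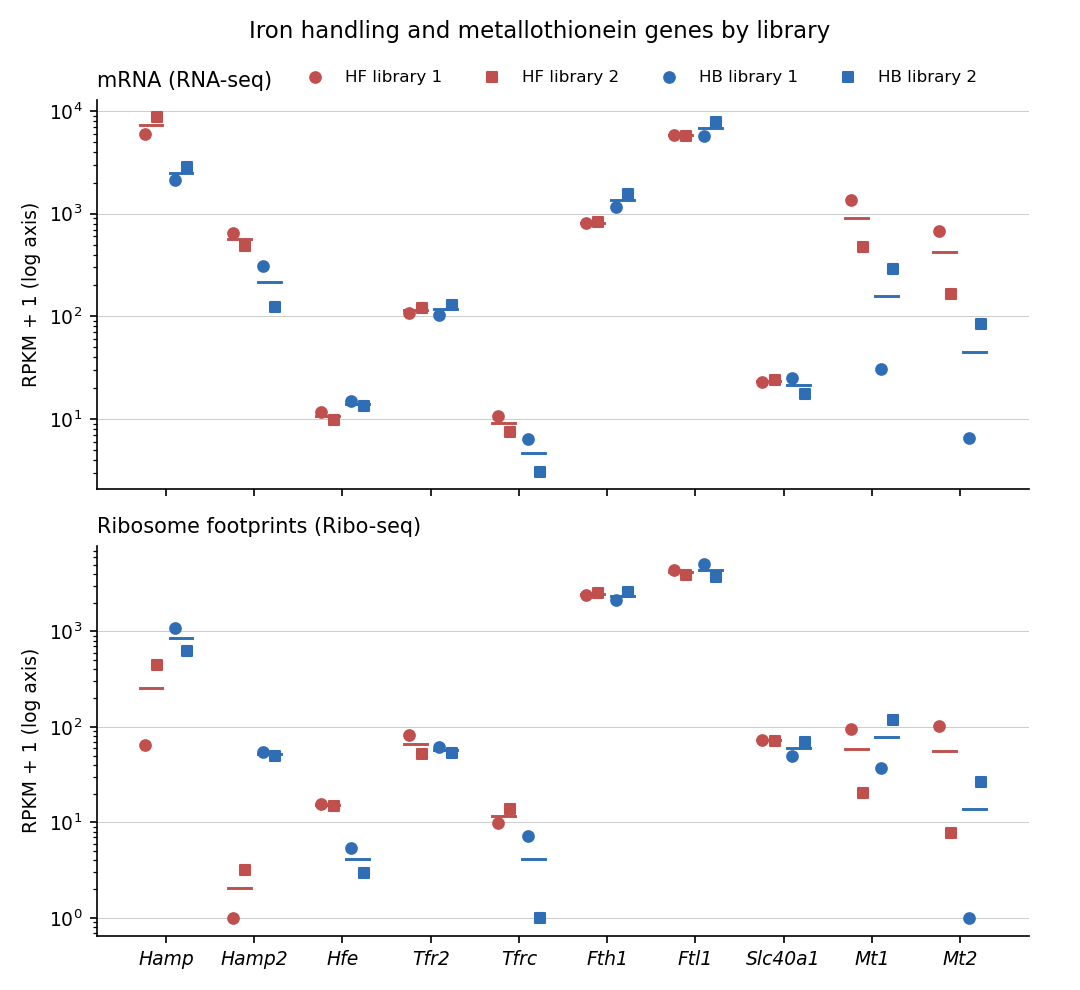
RPKM + 1 of the 10 genes in each library on a log axis, for mRNA (top) and RPFs (bottom); circles and squares are libraries 1 and 2 of HF (red) and HB (blue), and bars are the means of 2 libraries. Both HB values of Hamp, Hamp2, Mt1 and Mt2 mRNA lie below both HF values, and both HB values of Hamp and Hamp2 RPFs lie above both HF values.

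Hamp encodes the hepcidin of the mouse. Its mRNA measured 5918 and 8675 RPKM in the HF libraries and 2113 and 2859 RPKM in the HB libraries. Both HF libraries were above both HB libraries, and Hamp ranked 9 and 10 among 24535 genes in HF and 34 and 26 in HB. The mean was 7297 ± 1949 RPKM in HF and 2486 ± 528 in HB (SD, n = 2 each), a ratio of 2.94. On the log2 scale the change of mRNA was -1.54 ± 0.35 (SE), with an adjusted p of 0.0136 in limma. Without HF library 2, the higher of the HF libraries, it was -1.27 with an adjusted p of 0.0917.

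RPFs of Hamp went the other way. They measured 63.5 and 443 RPKM in HF, from 10 and 190 reads, and 1092 and 625 RPKM in HB, from 114 and 36 reads. Both HB libraries were above both HF libraries, while the HF libraries stood further apart from each other than the HB libraries did on a log scale. Their log2 fold change was 2.29 ± 0.96 (SE), with an unadjusted p of 0.0641 and an adjusted p of 0.519 in limma, and was not called. Over the alternatives this adjusted p ranged from 1.44e-05, with voom on recovered reads, to 0.999. With the reads of each group added up, the RPF rate was 2.72-fold higher in HB, with a 95% exact interval of 2.18 to 3.37 that covers counting error only. Without HF library 1, the one with 10 reads, the log2 fold change of RPFs was 0.90.

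The ratio of RPFs to mRNA of Hamp was 0.0107 and 0.0511 in HF and 0.517 and 0.219 in HB. Each HB value was above each HF value. TE had a log2 fold change of 3.83 ± 1.25 (SE), called by its unadjusted p of 0.0219, with an adjusted p of 0.364 in limma. It ranked 8 from the top among the 9455 genes tested for TE. The call was lost without HF library 1 (log2 fold change of TE 2.72) and without HF library 2 (4.95).

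Hamp2 is the paralog of Hamp next to it on chromosome 7, with 92.5% identity of the coding sequence. Its mRNA measured 643 and 486 RPKM in HF and 311 and 121 RPKM in HB, so that the groups did not overlap. Its log2 fold change of mRNA was -1.52 ± 0.41 (SE), with an adjusted p of 0.0255 in limma, which is near the -1.54 of Hamp. Without HB library 2 it was -0.84, under the fold required. Hamp mRNA exceeded that of Hamp2 by 9.20 and 17.9 times in the HF libraries and by 6.79 and 23.6 times in the HB libraries, so this ratio overlapped between the groups.

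RPFs of Hamp2 rested on few reads, 0 and 1 in HF against 6 and 3 in HB, or 0, 2.17, 53.4 and 48.4 RPKM. A count of 3 reads corresponded to 17.7 and 6.50 RPKM in the HF libraries and to 26.7 and 48.4 RPKM in the HB libraries, so that only HB library 1 stood above this level. With the reads added up, the RPF rate was 32.6-fold higher in HB, with a 95% exact interval of 4.52 to 1428 (counting error only). Hamp2 rose in RPFs by the unadjusted rule (log2 fold change of RPFs 4.86 ± 0.71, SE, unadjusted p = 0.0011, adjusted p = 0.493 in limma), and the 1 added to each RPKM sets the size of this value: with 0.1 added it was 6.74. Its adjusted p ranged from 0.00254 to 0.493 over the alternatives and was 0.00448 with voom. In TE it had the highest log2 fold change of all 9455 tested genes (6.38 ± 1.50, SE, unadjusted p = 0.00526, adjusted p = 0.334), with ratios of 0 and 0.00446 in HF and 0.172 and 0.399 in HB. Without HF library 1 the TE call was lost, at a log2 fold change of 5.35.

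Reads of Hamp and Hamp2 cannot all be told apart. Of the 28-base stretches of the Hamp transcript, about the size of an RPF, 36.8% also occur in Hamp2, and 34.4% of those of Hamp2 occur in Hamp. Of 50-base stretches, 16.6% of those of Hamp occur in Hamp2 and 15.5% of those of Hamp2 in Hamp. How the authors assigned reads that match several genes is not given in the sources used here. With Hamp at 10 to 190 RPF reads and Hamp2 at 1 to 6 where detected, the part of such reads in the Hamp2 RPF values was not tested. Nor was it tested for Hamp2 mRNA, where Hamp was also the more abundant gene.

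Since both genes moved alike in mRNA, their promoters are shown from 150 to 51 bases before the transcription start, from RefSeq (GRCm38.p6, minus strand): Hamp at chr7:30944080-30944179 and Hamp2 at chr7:30924232-30924331. The 250 bases before the start were 89.7% identical between the genes. On both strands, 2 motifs were searched in these 250 bases: GGCGCC, known in the hepcidin promoter as a BMP-responsive element, and TTCNNNGAA, the pair of half-sites that STAT proteins bind. They cannot overlap each other by more than 2 bases. TTCNNNGAA occurred in both, starting 97 bases before the start in Hamp and 94 in Hamp2, and in 7.02% of 32841 promoters of this length. GGCGCC occurred in Hamp only, 109 bases before the start, and in 9.59% of promoters. Capitals mark the matches, which describe the letters of the sequence and not a bound site.

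Hamp promoter: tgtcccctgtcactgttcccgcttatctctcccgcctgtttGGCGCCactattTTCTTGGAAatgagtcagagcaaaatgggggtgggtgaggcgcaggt

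Hamp2 promoter: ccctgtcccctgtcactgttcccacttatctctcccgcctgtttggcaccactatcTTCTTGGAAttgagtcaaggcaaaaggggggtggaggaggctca

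Hfe, whose protein pairs with transferrin receptors and takes part in hepcidin induction, was called in RPFs by the unadjusted rule. It was not called in mRNA, where the rule is stricter. Its mRNA was 10.7 and 8.67 RPKM in HF and 13.8 and 12.3 RPKM in HB, higher in both HB libraries, with a log2 fold change of mRNA of 0.40 ± 0.25 (SE) and an adjusted p of 0.262 in limma. RPFs of Hfe measured 14.4 and 13.8 RPKM in HF, from 20 and 52 reads, and 4.36 and 1.97 RPKM in HB, from 4 and 1 reads. The HF libraries were nearly equal and both above the HB libraries. Hfe fell in RPFs by the unadjusted rule (log2 fold change of RPFs -1.92 ± 0.57, SE, unadjusted p = 0.0209, adjusted p = 0.493 in limma). The ratio of the RPF rates was 3.98 in favour of HF, with a 95% exact interval of 1.63 to 12.6 (counting error only). Leaving out either HF library ended this call, at unadjusted p-values of 0.161 and 0.157.

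TE of Hfe was 1.34 and 1.59 in HF and 0.315 and 0.161 in HB. This log2 fold change of TE of -2.32 ± 0.64 (SE) was called by its unadjusted p of 0.0106, with an adjusted p of 0.334 in limma. This call too was lost without HF library 1 or HF library 2 (log2 fold changes of TE of -2.43 and -2.21), and without HB library 2 the value was -1.97, short of the fold required. Hfe is also expressed in macrophages. The macrophage markers summed to 312 and 213 RPKM of RPFs in HF and to 287 and 139 in HB. In RPFs 9 of the 11 had a negative log2 fold change, with a median of -0.69 against -0.43 over all genes, and 1 was called lower, near the 7.86% of all genes. In TE 10 of the 11 did, with a median of -1.06 against -0.35, and 1 was called lower, where 4.60% of all genes were. The called marker was Cd68 in both, with 12.7 and 6.99 RPKM of RPFs in HF and listed at 0 in both HB libraries. Cd68 has an annotated transcript of 1008 bases, and 3 reads on 1 kb correspond to 11.7 and 21.1 RPKM in the HB libraries. HF library 2 was below both levels and HF library 1 above the first only, so the call rests on values near the counting limit. These levels are approximate, since the length recovered for Cd68, 813 bases, is 19.35% from that transcript. The 7 endothelial markers summed to 157 and 128 RPKM of RPFs in HF and to 123 and 62.4 in HB. All 7 had a negative log2 fold change of RPFs, with a median of -1.25, and 2 were called lower. In TE 6 of the 7 did, with a median of -0.50, and 0 were called. The part of the cells behind either set of markers in the Hfe result was not tested.

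Tfr2, the liver receptor that senses iron-loaded transferrin, was near equal in the groups. Its mRNA was 108 and 119 RPKM in HF and 102 and 129 in HB, and its RPFs were 80.9 and 50.8 RPKM in HF and 60.5 and 51.7 in HB. The groups overlapped in both. The log2 fold change was 0.02 ± 0.26 (SE) in mRNA and -0.19 ± 0.35 (SE) in RPFs, each smaller than its error, and the sign of both depended on the library left out. TE lay between 0.401 and 0.751 in the 4 library pairs.

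Tfrc, which imports iron-loaded transferrin into most cells, had the lowest mRNA level of the 10 genes. It measured 9.72 and 6.45 RPKM in HF and 5.33 and 2.06 RPKM in HB. Both HB libraries were below both HF libraries, and the log2 fold change of mRNA was -1.02 ± 0.36 (SE), with an adjusted p of 0.0601 in limma. Without HB library 1 it was -1.55 (adjusted p = 0.00723), and without HB library 2 it was -0.50. RPFs of Tfrc measured 8.75 and 12.7 RPKM in HF, from 17 and 67 reads, and 6.21 and 0 RPKM in HB, from 8 and 0 reads. A count of 0 in HB library 2 allows up to 4.22 RPKM, the value of 3 reads there. RPFs had a log2 fold change of -2.10 ± 1.08 (SE), with an unadjusted p of 0.111 in limma, and the RPF rate in HF was 2.90 times that in HB with a 95% exact interval of 1.41 to 6.94 (counting error only). Without HB library 1 the log2 fold change of RPFs was -3.53, and without HB library 2 it was -0.68. Tfr2 mRNA was 11.1 and 18.5 times that of Tfrc in HF and 19.2 and 62.6 times in HB.

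Fth1, the ferritin heavy chain that oxidises iron for storage, had more mRNA and a near-equal RPF level in HB. Its mRNA measured 804 and 830 RPKM in HF and 1171 and 1553 RPKM in HB, and its RPFs 2397 and 2541 RPKM in HF and 2142 and 2579 in HB. The HB libraries were above the HF libraries in mRNA, and the groups overlapped in RPFs. For mRNA the log2 fold change was 0.72 ± 0.30 (SE), with an unadjusted p of 0.0353 and an adjusted p of 0.0966 in limma. That of RPFs was -0.07 ± 0.32 (SE), on 553 to 4056 reads per library, and its sign changed without HB library 1.

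TE of Fth1 was 2.98 and 3.06 in HF and 1.83 and 1.66 in HB. The values within a group lay close together and the groups did not overlap. Its log2 fold change of TE was -0.79 ± 0.46 (SE) with an adjusted p of 0.516 in limma, and did not reach the fold required. The median log2 fold change of TE over all tested genes was -0.35.

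Ftl1, the ferritin light chain, was among the highest genes in both assays. Its mRNA measured 5901 and 5672 RPKM in HF and 5677 and 7872 in HB, and its RPFs 4427 and 3930 RPKM in HF and 5113 and 3691 in HB. The groups overlapped in both, with a log2 fold change of 0.21 ± 0.34 (SE) in mRNA and 0.06 ± 0.38 (SE) in RPFs, and TE lay between 0.469 and 0.901. Fth1 mRNA amounted to 0.136 and 0.146 of Ftl1 mRNA in HF and to 0.206 and 0.197 in HB, so that the HB libraries held the higher share of heavy chain. In RPFs the same ratio was 0.541 and 0.646 in HF and 0.419 and 0.699 in HB, which overlapped. Of the 28-base stretches of Ftl1, 86.4% also occur in other transcripts, most of them in the pseudogene Ftl1-ps1, against 9.27% for Fth1, so the level of Ftl1 depends on how such reads were assigned.

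Slc40a1, the only known exporter of iron, carries the same kind of 5′ element as the ferritins. Its mRNA was 22.05 and 23.1 RPKM in HF and 23.9 and 16.7 in HB, and the groups overlapped. RPFs measured 72.4 and 70.3 RPKM in HF and 48.3 and 68.8 in HB, both HB values below the HF values, the second by little. The log2 fold change was -0.17 ± 0.26 (SE) in mRNA and -0.30 ± 0.32 (SE) in RPFs, and the sign of both turned when the libraries were set to a common median. TE of Slc40a1 was 3.29 and 3.04 in HF and 2.03 and 4.13 in HB, at the level of Fth1 in HF. The 3 genes with a 5′ element thus had log2 fold changes of TE of -0.79, -0.15 and -0.13, and none was called.

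Mt1 and Mt2 had the largest falls in mRNA of the 10 genes. Mt1 mRNA measured 1348 and 476 RPKM in HF and 29.6 and 285 RPKM in HB. Mt2 mRNA measured 682 and 164 RPKM in HF and 5.58 and 82.4 RPKM in HB. In both genes HF library 1 was the highest and HB library 1 the lowest, the libraries of a group differed by more than 2-fold, and the groups still did not overlap. The log2 fold change of mRNA was -3.10 ± 0.85 (SE) for Mt1 and -3.84 ± 0.98 (SE) for Mt2, with adjusted p-values of 0.0259 and 0.0203 in limma. That of Mt2 was the lowest of all 10687 tested genes, and Mt1 ranked 5 from the lowest.

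The size of the metallothionein difference depended on the libraries. Without HB library 1 the log2 fold change of mRNA was -1.49 for Mt1 and -2.01 for Mt2, and without HB library 2 it was -4.71 and -5.67. The ratio of Mt1 to Mt2 mRNA was 1.98 and 2.90 in HF and 5.31 and 3.46 in HB, higher in both HB libraries.

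RPFs of the metallothioneins rested on few reads. Mt1 RPFs measured 95.1 and 19.2 RPKM in HF, from 20 and 11 reads, and 35.9 and 117 RPKM in HB, from 5 and 9 reads. The groups overlapped, and the log2 fold change of RPFs was 0.58 ± 0.94 (SE). Mt2 RPFs measured 102 and 6.81 RPKM in HF, from 22 and 4 reads, and 0 and 25.4 RPKM in HB, from 0 and 2 reads, with a log2 fold change of -2.47 ± 1.97 (SE). The ratio of the Mt2 RPF rates was 3.59 in favour of HF, with a 95% exact interval of 0.899 to 31.2 (counting error only), so that no difference was detectable at this depth. TE of Mt1 was 0.0706 and 0.0404 in HF and 1.21 and 0.410 in HB, a log2 fold change of TE of 3.68 ± 0.97 (SE), called by its unadjusted p of 0.0086 with an adjusted p of 0.334 in limma. The call was lost without HF library 2 (log2 fold change of TE 3.31) and when the RNA-seq and Ribo-seq libraries were matched the other way round (unadjusted p = 0.124). TE of Mt2 was 0.15 and 0.0415 in HF and 0 and 0.308 in HB. Its log2 fold change of TE was 1.38 ± 1.08 (SE) and turned negative with 0.1 in place of 1 added to the RPKM.

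Over the 10 genes in RPFs, 1 rose (Hamp2) and 1 fell (Hfe), against 1.58% and 7.86% of all 11190 tested genes and 9.44% in either direction. With the adjusted p, limma called 0 genes of all tested, where 1122 had an unadjusted p under 0.05 and voom on recovered reads called 581 higher and 475 lower at the thresholds of the study. The groups did not overlap in 5 of the 10 (42.3% of all genes), with HB above HF in 2 (9.07%) and below it in 3 (33.2%). The median log2 fold change of RPFs was -0.13 over the 10 genes and -0.43 over all. In TE, 3 rose (Hamp, Hamp2 and Mt1) and 1 fell (Hfe), against 1.49%, 4.60% and, in either direction, 6.09% of 9455 genes. By the adjusted p there were again 0 calls among all genes, where 1154 had an unadjusted p under 0.05. The groups did not overlap in 6 of the 10 (45.7% of all genes), with HB above HF in 4 (14.0%) and below it in 2 (31.7%). The mRNA values enter TE, so a fall in mRNA raises TE by construction where the RPFs do not fall with it. Mt2 counts among the 4 by a margin that rests on the 1 added to each RPKM, since its plain ratios overlap.

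**Figure D2:**
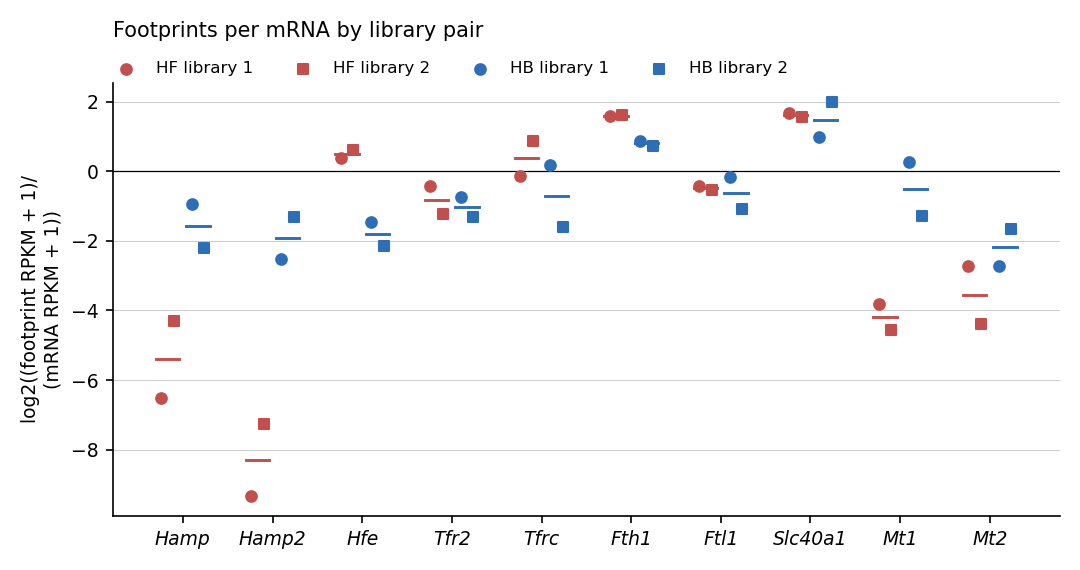
log2((RPF RPKM + 1)/(mRNA RPKM + 1)) of the 10 genes for the RNA-seq and Ribo-seq libraries of the same number; circles and squares are numbers 1 and 2 of HF (red) and HB (blue), bars are means of 2, and the line at 0 marks equal RPKM. Hamp, Hamp2 and Mt1 lie well below 0 in HF and higher in HB without overlap, Mt2 is higher in HB with its nearest libraries almost level, and Hfe and Fth1 lie lower in HB.

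**Figure D3:**
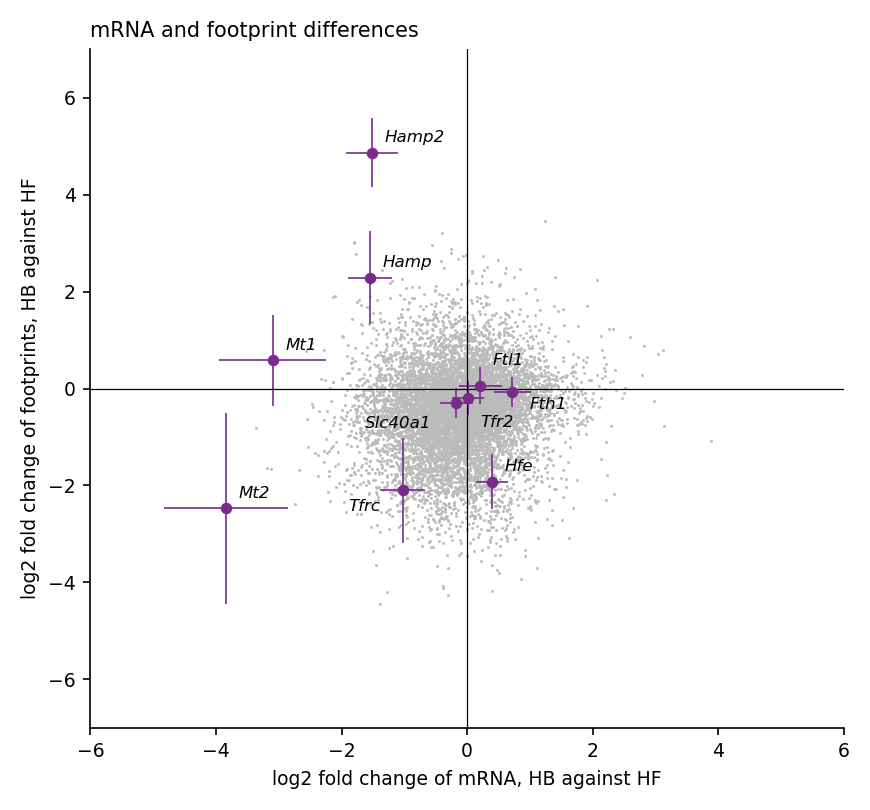
log2 fold change of RPFs (vertical axis) against that of mRNA (horizontal axis), HB against HF, for the genes tested in both assays (grey) and the 10 genes (purple, with bars of 1 SE). Hamp2, Hamp and Mt1 lie at the upper left, lower in mRNA and higher in RPFs, Mt2 and Tfrc at the lower left, and Hfe at the lower right.

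The order of the genes differed between the assays. By mean mRNA in HF, Hamp (7297 RPKM) and Ftl1 (5787) led, followed by Mt1 (912), Fth1 (817), Hamp2 (564), Mt2 (423), Tfr2 (114), Slc40a1 (22.6), Hfe (9.70) and Tfrc (8.09). Fth1, Hamp2 and Mt2 each had a library within the range of Mt1, and the libraries of Hfe and Tfrc overlapped. In HB, Ftl1 (6775 RPKM) led Hamp (2486) and Fth1 (1362), and Mt2 (44.0) stood below Tfr2 (115). By mean RPFs, Ftl1 (4179 RPKM in HF and 4402 in HB) and Fth1 (2469 and 2361) led in both groups, with Hamp (253 and 859) as the next by the mean. In HF library 1, Hamp RPFs (63.5 RPKM) stood below those of Mt2, Mt1, Tfr2 and Slc40a1. Slc40a1 stood at 71.4 and 58.6 RPKM of RPFs, above several genes with more mRNA, and overlapped Tfr2 in both groups.

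The genes that control hepcidin were taken as a list of 21, of which 20 were tested in mRNA. By the thresholds of the study, 0 were called higher and 1 lower (2.30% and 6.56% of all genes). This was Id1, a target gene of BMP and SMAD signalling, with 42.0 and 25.9 RPKM of mRNA in HF and 9.07 and 12.4 in HB (log2 fold change of mRNA -1.55 ± 0.30, SE, adjusted p = 0.00829 in limma). At an adjusted p under 0.05, 3 were lower and 1 higher, beside 19.1% and 7.92% of all genes. The gene of hemojuvelin, a BMP co-receptor listed as Hfe2 in the RNA-seq data, measured 94.4 and 65.1 RPKM of mRNA in HF and 36.9 and 43.5 in HB (log2 fold change of mRNA -0.95 ± 0.28, SE). Atoh8, a transcription factor that acts on the hepcidin promoter, measured 20.6 and 33.8 RPKM in HF and 5.93 and 15.8 in HB. Tmprss6, the protease that cleaves hemojuvelin and so restrains hepcidin, was the higher one, at 53.0 and 87.6 RPKM in HF and 136 and 136 in HB (log2 fold change of mRNA 0.99 ± 0.29, SE, adjusted p = 0.0348). Hfe2 and Atoh8 were chosen after their values were seen. The median log2 fold change of mRNA over the list was -0.26, near the -0.19 of all genes.

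In RPFs, 0 of 20 genes of this list were called higher and 3 lower by the unadjusted rule, beside 1.58% and 7.86% of all genes. Il6ra, the interleukin 6 receptor, measured 40.5 and 17.7 RPKM of RPFs in HF and 4.61 and 8.36 in HB (log2 fold change of RPFs -1.94 ± 0.59, SE). Smad1, which carries the BMP signal, measured 6.85 and 5.35 RPKM of RPFs in HF and 1.29 and 0 in HB, where 3 reads correspond to 3.88 and 7.03 RPKM, so that the call rests on values within the counting limit. Atoh8 was called lower as well (log2 fold change of RPFs -1.61 ± 0.61, SE), and lost that call under 10 of the 14 alternative settings. None of the list was called in TE.

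Of 13 genes listed as acute-phase genes, not all of which need report inflammation in the mouse, 2 were called higher in mRNA, where 2.30% of all genes were, and 0 lower: Saa2 (log2 fold change of mRNA 1.22 ± 0.26, SE) and Crp (1.34 ± 0.27, SE). Crp measured 47.8 and 50.4 RPKM of mRNA in HF and 148 and 107 in HB. By the adjusted p alone, 3 were higher and 3 lower, beside 7.92% and 19.1% of all genes, and the list's median log2 fold change of mRNA was 0.25. In RPFs, 0 of 12 were called higher and 1 lower (Orm2, with 6.66 and 2.45 RPKM of RPFs in HF and listed at 0 in both HB libraries, where 3 reads correspond to 15.1 and 27.3 RPKM). In TE, 1 of 12 was called higher, where 1.49% of all genes were, and 0 lower. This was Saa3, with TE of 0.459 and 0.110 in HF and 3.02 and 3.51 in HB. Saa3 was not called in mRNA or in RPFs, so its ratio alone does not tell which of them moved.

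The iron regulatory proteins Aco1 and Ireb2 were not called in any measure. Aco1, which turns between an aconitase and an RNA-binding protein, measured 29.8 and 27.4 RPKM of mRNA in HF and 60.6 and 42.5 in HB (log2 fold change of mRNA 0.81 ± 0.27, SE, adjusted p = 0.0496 in limma). Ireb2 measured 10.0 and 8.93 RPKM of mRNA in HF and 14.9 and 5.77 in HB, with both HF values between the HB values.

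Of 21 further genes of iron transport and storage, 16 were tested, and 0 were called in mRNA, RPFs or TE by the thresholds of the study. In limma, 2 were higher and 2 lower in mRNA at an adjusted p under 0.05, beside 7.92% and 19.1% of all genes. Trf, the transferrin that carries iron in plasma, rose by the adjusted rule, from 1901 and 2281 RPKM of mRNA in HF to 4878 and 4094 in HB (log2 fold change of mRNA 1.10 ± 0.32, SE, adjusted p = 0.0307). Leaving out 1 library moved this log2 fold change between 0.97, under the fold required, and 1.23. RPFs of Trf overlapped between the groups, at 5499 and 4023 RPKM in HF and 5081 and 3702 in HB. Hp, the haptoglobin that binds free hemoglobin, had the highest mRNA of the list in HF, at 4764 and 4723 RPKM of mRNA in HF and 2579 and 4597 in HB, and was not called. In HB library 1 its mRNA was below that of Trf and in HB library 2 above it.

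**Figure D4:**
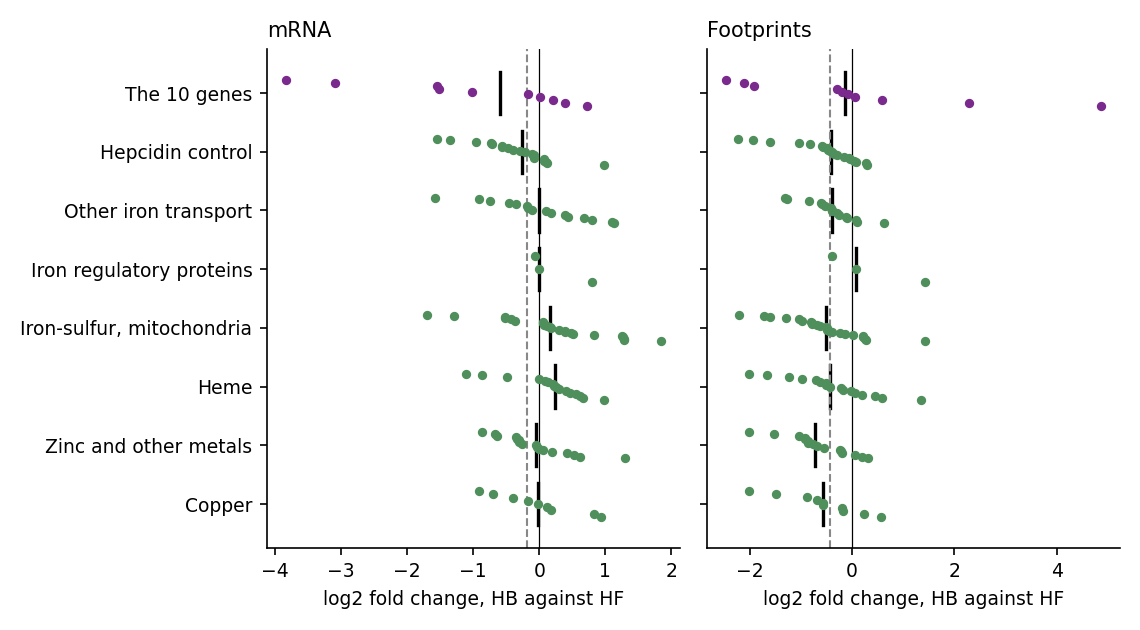
log2 fold change, HB against HF, of each tested gene in the lists (points), for mRNA (left) and RPFs (right); black bars are list medians and the dashed line is the median of all tested genes. The 10 genes reach from -3.84 to 0.72 in mRNA and from -2.47 to 4.86 in RPFs, a wider range than in any of the other lists shown.

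Mitochondria use much of the cell's iron for iron-sulfur clusters. Of 24 genes of this pathway, 4 were called higher in mRNA and 2 lower, beside 2.30% and 6.56% of all genes. Glrx5, a glutaredoxin that passes clusters on, measured 51.1 and 47.8 RPKM of mRNA in HF and 176 and 184 in HB (log2 fold change of mRNA 1.84 ± 0.25, SE). Nfu1 and Iba57, which act late in cluster assembly, and Cisd1, an outer-membrane cluster protein, had log2 fold changes of mRNA of 1.29, 1.27 and 1.25. Slc25a37, the mitochondrial iron importer mitoferrin 1, measured 28.2 and 39.6 RPKM of mRNA in HF and 14.6 and 11.8 in HB (log2 fold change of mRNA -1.29 ± 0.27, SE). Fdxr, the reductase of ferredoxin, measured 68.8 and 82.5 RPKM in HF and 16.6 and 30.2 in HB (log2 fold change of mRNA -1.70 ± 0.31, SE). Glrx5 and Iba57 were called lower in TE, by log2 fold changes of TE of -2.30 and -2.99, beside 4.60% of all genes called lower, while their RPF differences were not called. Iba57 had 8.32 and 3.53 RPKM of RPFs in HF and 2.90 and 0 in HB, where 3 reads correspond to 2.90 and 5.25 RPKM, so the size of its TE difference is not fixed at this depth.

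Of 16 genes of heme metabolism tested in mRNA, 0 were called. In RPFs, where 1.58% of all genes were called higher and 7.86% lower, 1 of 17 was called higher, Hmox2, a heme oxygenase (16.4 and 10.6 RPKM in HF, 31.0 and 39.3 in HB), and 1 lower, Flvcr2, a transporter (1.50 and 3.03 RPKM in HF, listed at 0 in both HB libraries). Since 3 reads on Flvcr2 correspond to 3.40 and 6.16 RPKM in the HB libraries, above both HF values, a fall was not detectable at this depth.

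Other metal genes were set beside Mt1 and Mt2. Of 17 tested genes of zinc and other metals, which include the zinc transporters of the cell, 1 was called higher in mRNA, the transporter Slc39a11 (2.80 and 2.67 RPKM in HF and 8.54 and 7.80 in HB), and 0 were called lower, beside 2.30% and 6.56% of all genes. In RPFs, where 7.86% of all genes were called lower, 1 of 16 was, Slc39a10, at 3.54 and 2.60 RPKM in HF and listed at 0 in both shallow HB libraries, a call lost under 5 of its 12 alternatives. The median log2 fold change of mRNA over this list was -0.06. Of 9 copper genes, 0 were called in mRNA, and in RPFs 1 of 10 was called lower, beside the same 7.86%: Sco2, a copper chaperone of cytochrome oxidase (46.3 and 52.5 RPKM in HF and 22.2 and 5.75 in HB). The other metallothionein genes listed, Mt3 and Mt4, were at 0 in every library of both assays.

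A list of 9 genes known to respond to glucocorticoids or fasting, as the metallothioneins also do, had a median log2 fold change of mRNA of -0.97. By the thresholds of the study 2 were called lower and 0 higher (6.56% and 2.30% of all genes), and 4 were lower at an adjusted p under 0.05, where 19.1% of all genes were. Per1, a clock gene, measured 59.5 and 59.9 RPKM of mRNA in HF and 17.1 and 26.9 in HB (log2 fold change of mRNA -1.43 ± 0.28, SE). Gadd45b, a stress-response gene, measured 43.2 and 6.61 RPKM in HF and 0.631 and 1.75 in HB (log2 fold change of mRNA -3.12 ± 0.65, SE), and like Mt1 and Mt2 it was highest in HF library 1 and lowest in HB library 1. Leaving out 1 library moved this log2 fold change between -4.39 and -1.85, and the call was lost without HB library 1. In RPFs, 3 of the 9 were called lower and 0 higher (7.86% and 1.58% of all genes), with Cdkn1a, a cell cycle inhibitor, at 13.5 and 5.94 RPKM in HF and 2.03 and 0 in HB, where 3 reads correspond to 6.10 and 11.1 RPKM. In TE, 1 of the 9 was called lower, where 4.60% of all genes were, and 0 higher, and the median log2 fold change of TE was 0.12 against -0.35 over all genes. The called gene was Zbtb16, with TE of 2.87 and 1.64 in HF and 0.800 and 0 in HB, and the call was lost without HF library 1, HF library 2 or HB library 2. The time of day and the feeding state at collection are not given in the labels, and their part in the metallothionein result was not tested.

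The calls in these lists were also computed with each library left out in turn, which leaves 1 library in that group. Of the list genes named as called in mRNA, Glrx5, Fdxr and Hbb-bs kept the call whichever library was left out. Nfu1, Iba57, Cisd1, Slc39a11, Crp and Per1 lost it without HF library 1 or 2, and Saa2 without HF library 1, HF library 2 or HB library 2. Id1 and Stab1 lost it without HF library 1 or HB library 1, and Slc25a37 without HF library 2 or HB library 2. In RPFs, Smad1, Atoh8 and Sco2 lost the call without HF library 1 or 2, Il6ra without HF library 1, HF library 2 or HB library 1, Cdkn1a without HF library 1, HF library 2 or HB library 2, Hmox2 without HF library 2 or HB library 2, and Flvcr2 without HB library 1 or 2. In TE, Glrx5 and Iba57 lost it without HF library 1, HF library 2 or HB library 2.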

How the data were processed

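RNA-seq and Ribo-seq of liver gave 4 libraries each, 2 HF and 2 HB. Reads were mapped by the authors with FANSe2 (mm10), and the deposited values are RPKM for each gene in each library; edgeR, with which the authors called differential genes, was not run here. How multi-mapping reads, strand and footprints outside coding sequence were treated is not given in the sources used here. Exons of antisense genes in GENCODE M21 overlap 73.5% of Mt2, 26.5% of Ftl1 and 15.3% of Hamp2 exon bases, and without strand such reads cannot be told apart.

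Whole reads were recovered from the steps between RPKM values (99.98% of RNA-seq and 100% of Ribo-seq values, tolerance 0.03 reads), and the lengths they imply were checked against annotated transcripts for the 10 genes. For some other genes the recovered number may be a fraction of the true one, so reads are printed for the 10 genes alone. The level of 3 reads is also given for Smad1, Flvcr2, Cdkn1a, Iba57 and Orm2, whose implied lengths are at most 2.94% from that of an annotated transcript. Intervals are exact (Clopper-Pearson, conditional on the summed reads) and, like the level of 3 reads, cover counting error only, since reads carry no molecular identifiers.

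The test was that of limma (version 3.58.1, R version 4.3.3; two-sided, with a variance trend) on log2(RPKM + 1), with group as the only factor, for genes whose RPKM averaged 1 or more in an assay, and p-values were adjusted over all tested genes. TE was tested on log2((RPF + 1)/(mRNA + 1)) for libraries of the same number, although no source ties them to 1 animal. The steps were tested on simulated data. Alternatives were another pseudocount, filter, scaling, variance trend, replicate block, adjusted p, each library left out, voom on recovered reads, and for TE an interaction term and crossed numbers; a crossed block was added after seeing the data.

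The genes, though named for their function, and the lists were chosen with earlier results of these data known. All 10 genes are described. Of each list the genes called in mRNA, up to 2 called per direction in RPFs and TE, and the most abundant ones could be named, with Aco1, Ireb2, Trf and Tmprss6 in any case. The result of 1 gene that this rule selects is not reported here.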

Additional observations from a re-analysis of the deposited data

How the results depend on the processing

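With 2 libraries per group and 141890 to 1056546 RPF reads per library, depth limits the RPF and TE values of Hamp2, Hfe, Tfrc, Mt1 and Mt2 most, and 1 library decided several calls. All 4 falls in mRNA kept their direction under the 14 alternatives run, with log2 fold changes of -1.82 to -1.27 for Hamp, -2.19 to -0.84 for Hamp2, -4.71 to -1.49 for Mt1 and -5.67 to -2.01 for Mt2. Without the filter on low values their adjusted p-values were 0.102, 0.115, 0.145 and 0.13, and all 4 missed 0.05. The TE call of Hamp was also lost with 0.1 added (unadjusted p = 0.0596) and with a common sum (0.0528), and that of Mt1 with the interaction term (0.0666). Hamp RPFs passed the unadjusted rule with a common median, a replicate block, a crossed block, voom and without HF library 2, at log2 fold changes of 2.61, 2.29, 2.29, 2.21 and 3.68. Tfrc RPFs passed it with voom, a crossed block and without HB library 1, at log2 fold changes of -2.12, -2.10 and -3.53. Mt2 RPFs passed it with a crossed block (-2.47) and Slc40a1 RPFs with a common sum (-1.17). In RPFs, Hamp and Hamp2 had adjusted p-values of 1.44e-05 and 0.00448 with voom, 0.0089 and 0.00254 with the crossed block, and 0.381 and 0.0264 with the replicate block. The cause of these changes was not tested.

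Correlations across genes gave no clear sign that the numbers pair libraries. For HF against HB, deviations of same-numbered libraries from their groups correlated at -0.104 in mRNA, -0.0138 in RPFs and 0.0127 in TE. For RNA-seq against Ribo-seq libraries of the same number, as paired for TE, the correlation was -0.00239 in HF and -0.0774 in HB. These values cannot decide whether libraries of the same number share an animal. With the replicate block, 498 genes were called higher in mRNA and 1229 lower, against 246 and 701 without it. A crossed block, chosen after seeing the data, gave 474 and 1303.

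Other counts that moved by over 1.5 times, the cause of which was not tested, were as follows. In mRNA, genes higher and lower in HB numbered 535 and 1353 with the adjusted p, 77 and 188 without the filter, 540 and 291 with a common median, and 391 and 415 with voom. In RPFs, where 177 were called higher and 879 lower, they numbered 0 and 0 with the adjusted p, 349 and 421 with a common median, 41 and 2659 with a common sum, 581 and 475 with voom, and 311 were lower at a mean RPKM of at least 5. In TE, where 141 were called higher and 435 lower, they numbered 0 and 0 with the adjusted p, 71 and 179 at a mean RPKM of at least 5, and 42 and 1332 with a common sum. The common sum moved the median log2 fold change of all genes to -1.16 in RPFs and -1.03 in TE, and the common median moved it to 0.08 in mRNA and -0.10 in RPFs. Leaving out 1 library, where the lone library of a group is assumed to vary like the other group, gave 169 to 503 genes higher and 535 to 1055 lower in mRNA, 59 to 570 and 413 to 2517 in RPFs, and 61 to 457 and 114 to 1252 in TE.

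Signs turned only for genes that were not called. In mRNA, leaving out 1 library gave log2 fold changes of -0.027 to 0.44 for Ftl1, -0.15 to 0.18 for Tfr2, -0.42 to 0.077 for Slc40a1 and -0.63 to 0.61 for Ireb2. Beside these, Tfr2 was at -0.028 with a common sum, Slc40a1 at 0.10 with a common median and 0.043 with voom, and Ireb2 at 0.26 and 0.19. In RPFs, the ranges were -0.20 to 0.064 for Fth1, -0.18 to 0.29 for Ftl1, -0.53 to 0.14 for Tfr2 and -0.54 to 1.71 for Mt1. A common median gave 0.26 for Fth1, 0.13 for Tfr2 and 0.023 for Slc40a1, voom gave 0.089 for Fth1 and 0.040 for Tfr2, and a common sum gave -0.82 for Ftl1 and -0.28 for Mt1. In TE, the ranges were -0.62 to 0.32 for Ftl1, -0.61 to 0.19 for Tfr2 and -0.63 to 0.36 for Slc40a1, and Mt2 was at -0.11 with 0.1 added. Of the 941 values of named genes under an alternative, 733 kept direction and side of the threshold, 138 lost a call, 41 gained one and 29 turned sign.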
